A study of Homo sapiens with 6 samples.

Results

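The BCL2 family of proteins decides at the mitochondrial outer membrane whether a cell lives or dies, and 10 of its genes were followed here in human neuroblastoma cells given dopamine. The members were taken by gene symbol from a table of 26789 genes: the survival genes BCL2, BCL2L1 and MCL1, the effector genes BAX and BAK1, and the BH3-only genes BBC3, PMAIP1, BCL2L11, BID and BAD. Each of the 10 symbols occurred once in the table. RNA came from wild-type SK-N-SH cells, an established neuroblastoma line that holds cells of neuronal and of substrate-adherent shape. Control cells (n = 3) received medium alone and treated cells (n = 3) received dopamine, both for 6 h, with no genetic change in either group. The dose is left out because its unit in the labels appears to lack a prefix, and the design text of the series speaks of SH-SY5Y, a subline of SK-N-SH. The replicates are numbered 1 to 3 in each group, and nothing says that they came from separate cultures, so p-values reflect only how far these samples differ, which may be a technical spread.

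In this family the survival proteins hold the effectors in check, and the effectors, once released, form pores in the outer membrane and let cytochrome c out to start the caspases. BH3-only proteins carry stress signals: they bind the survival proteins or the effectors and tip the balance toward death. Several members are controlled by transcription under stress, among them PMAIP1 and BBC3, and MCL1 and PMAIP1 make proteins that turn over fast. In neuroblastoma the survival members are known as points of drug attack.

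The values are FPKM, fragments of a gene scaled by its length and by the size of the library. Levels of different genes can be set side by side only roughly, since the gene lengths used are not stated. In control cells BAX and BCL2L1 stood highest, at 58.1 ± 3.13 and 51.8 ± 4.46 FPKM (SD, n = 3), and their ranges overlapped. BAD followed at 40.8 ± 5.52 FPKM, which may hold reads of the overlapping gene GPR137, and MCL1 at 30.0 ± 4.20 FPKM. BAK1 and BID, at 16.8 ± 1.43 and 16.1 ± 1.95 FPKM, overlapped each other. PMAIP1 (7.35 ± 1.38 FPKM), BBC3 (3.91 ± 0.382 FPKM), BCL2L11 (1.74 ± 0.170 FPKM) and BCL2 (0.677 ± 0.0702 FPKM) completed the order without overlap between neighbours. BCL2, the gene that names the family, was thus the lowest of the 10, and BCL2L1 and MCL1 were by far the higher of the 3 survival members at the RNA level.

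**Figure D1:**
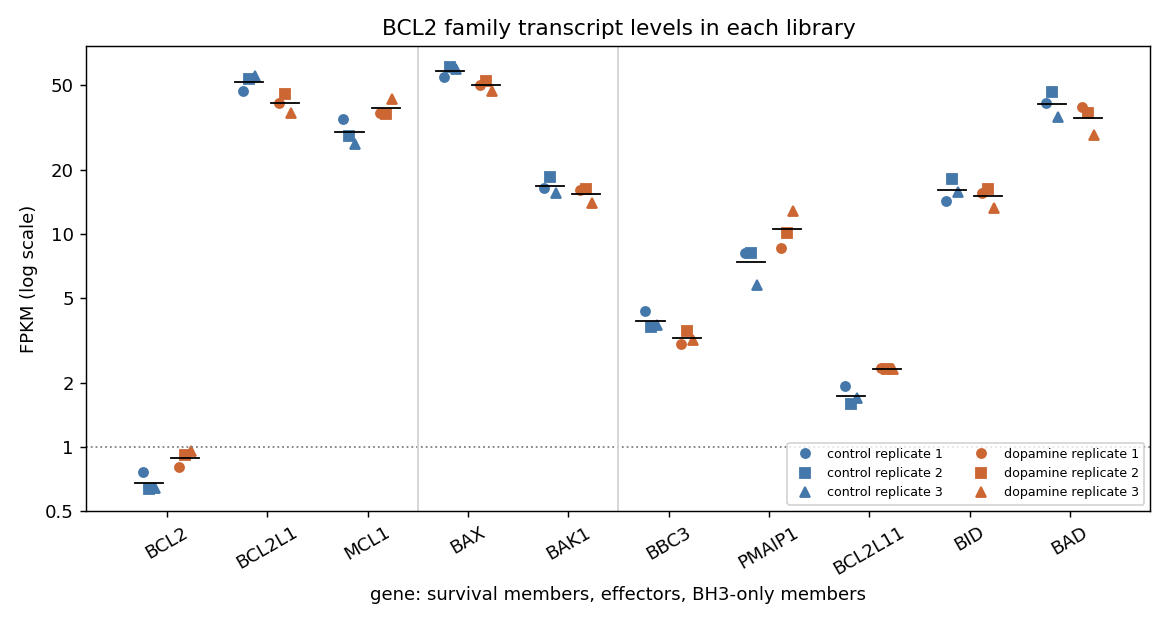
FPKM on a log axis for the 10 genes in each of 6 libraries (marker shape: replicate; colour: group; bar: group mean; dotted line: 1 FPKM). BCL2L1, BAX and BBC3 lie lower, and MCL1, BCL2, PMAIP1 and BCL2L11 higher, in all 3 dopamine libraries than in all 3 control libraries. Groups separated in 34.4% of all genes with a mean of 0.3 FPKM or more.

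Depth and library properties touch every value below. The totals recovered from the steps between low values ran from 19393000 to 24230000 fragments, and with exon lengths from GENCODE 29 this gives an estimated 155 to 239 fragments a library for BCL2, 201 to 314 for BBC3 and 2611 to 4293 for BCL2L1. All 8 adrenergic neuroblastoma markers and all 6 mesenchymal ones were above a mean of 1 FPKM, and the sums of both lists overlapped between the groups (301 to 347 FPKM in control and 295 to 346 FPKM in dopamine libraries for the adrenergic list, 1130 to 1269 and 1124 to 1175 FPKM for the mesenchymal list). Such sums rest mostly on abundant genes, such as HAND2 (mean 130 FPKM) and VIM (mean 874 FPKM). Single markers did differ: PHOX2A was lower with dopamine (82.7 ± 2.20 and 69.5 ± 4.21 FPKM) without overlap. SNAI2 was higher (16.4 ± 1.11 and 22.7 ± 2.16 FPKM) without overlap. Groups separated in 34.4% of all genes with a mean of 0.3 FPKM or more. Markers of leukocytes summed to at most 0.0939 FPKM over the 3 of 5 genes in the table, with PTPRC at 0 in 5 libraries, and those of endothelium to at most 1.02 FPKM over 3 of 4 genes. Epithelial markers summed to 142 to 176 FPKM in control and 107 to 123 FPKM in dopamine libraries, nearly all of it keratin RNA, while EPCAM and CDH1 stayed below 0.2 FPKM. Nuclear-retained RNAs, 3 of 4 in the table, summed to 1.82 to 2.39 FPKM in control and 2.38 to 4.57 FPKM in dopamine libraries. The libraries also differed in how values depended on transcript GC content, which is described after the members. What the keratin, nuclear RNA and GC differences contribute to the members' values was not tested.

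In the comparison of dopamine with control cells no member passed the adjusted threshold. Groups were compared on log2(FPKM + 0.5) with limma over the 11791 genes with a mean of 1 FPKM or more, which held 9 of the 10 members (BCL2 lay below). Of all genes tested, 0.102% passed an adjusted p of 0.05, and 0 of the 9 members did; BCL2, tested with all genes of a mean of 0.3 FPKM or more (0.0916% passing), did not pass either. An unadjusted limma p under 0.05 was reached by 5 of the 9, with MCL1, PMAIP1 and BCL2L11 higher and BCL2L1 and BAX lower with dopamine, against 24.4% of all tested genes higher and 8.05% lower, or 32.5% in either direction. The split over all genes depends on the scaling: after median-of-ratios scaling, which moves the median log2 fold change of all tested genes from 0.08 to 0.00023, it was 16.1% higher and 14.9% lower, and 3 members were higher and 3 lower. The groups did not overlap in 7 of the 10 members, 4 higher and 3 lower with dopamine. The same held for 22.6% (higher), 11.8% (lower) and 34.4% (either) of the 15278 genes with a mean of 0.3 FPKM or more. The median log2 fold change of the 9 tested members was -0.12, against 0.08 over all tested genes. Bulk RNA cannot tell fewer cells of one type from less RNA per cell.

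BCL2L1, whose main product BCL-XL shields cells by binding BAX and the BH3-only proteins, lay lower in every dopamine library. It stood at 46.8, 53.5 and 55.2 FPKM in the 3 control libraries (in the order of their numbers, as below) and at 41.0, 45.3 and 36.9 FPKM in the 3 dopamine libraries, so that the highest dopamine value came close to the lowest control value without reaching it. With dopamine the mean was 41.0 ± 4.21 FPKM, or 0.793 times the control level as fitted. The log2 fold change was -0.33 (SE 0.10, 95% interval -0.55 to -0.11, limma adjusted p = 0.11). The gene lies on hg19 chromosome 20, 30252255 to 30311792 (ENSG00000171552.8). An antisense RNA whose span overlaps it was almost silent, at a mean of 0.0411 FPKM.

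MCL1, which encodes a short-lived survival protein that holds BAK1 in particular, moved the other way. Control libraries gave 34.7, 28.8 and 26.5 FPKM, dopamine libraries 36.7, 36.7 and 42.9 FPKM, with control replicate 1 close to the lower dopamine libraries. The means, 30.0 ± 4.20 and 38.8 ± 3.60 FPKM, differed 1.29-fold as fitted (0.37 on the log2 scale, SE 0.11, 95% interval 0.12 to 0.62, adjusted p = 0.11 in limma). MCL1 lies on hg19 chromosome 1, 150547032 to 150552066 (ENSG00000143384.8).

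BCL2 itself was measured at 0.758, 0.635 and 0.637 FPKM in control and at 0.799, 0.915 and 0.952 FPKM in dopamine libraries (hg19 chromosome 18, 60790579 to 60987361, ENSG00000171791.10). All dopamine values were the higher ones, though control replicate 1 lay near dopamine replicate 1. Fitted among genes with a mean of 0.3 FPKM or more, its log2 fold change was 0.24 (SE 0.13, 95% interval -0.06 to 0.54, adjusted p = 0.252 in limma). The added constant of 0.5 is almost as large as its level and understates the change, which was 0.35 with a constant of 0.1 (adjusted p = 0.26 in limma, range over 17 alternatives 0.137 to 0.944).

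The effector BAX, which moves from the cytosol to mitochondria when activated, stood at 54.6, 60.7 and 59.1 FPKM in control and at 50.2, 52.1 and 46.8 FPKM in dopamine libraries. The groups did not overlap, and the mean went from 58.1 to 49.7 ± 2.7 FPKM (log2 fold change -0.22, SE 0.08, 95% interval -0.40 to -0.05, adjusted p = 0.116 in limma). BAX lies on hg19 chromosome 19, 49458072 to 49465055 (ENSG00000087088.15). BAK1, the effector that sits in the outer membrane at rest, showed overlapping groups, with 16.5, 18.4 and 15.6 FPKM in control and 16.1, 16.1 and 14 FPKM with dopamine (log2 fold change -0.12, SE 0.10, 95% interval -0.34 to 0.09, adjusted p = 0.37 in limma; hg19 chromosome 6, 33540329 to 33548019, ENSG00000030110.8).

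The BH3-only genes divided. PMAIP1, which encodes NOXA, a partner that promotes the loss of MCL1 protein, stood at 8.13, 8.16 and 5.76 FPKM in control and at 8.55, 10.1 and 12.9 FPKM in dopamine libraries. The values did not overlap, but control replicates 1 and 2 lay close to dopamine replicate 1, while control replicate 3 and dopamine replicate 3 were the far ends. Its log2 fold change of 0.48 (SE 0.17, 95% interval 0.11 to 0.86, adjusted p = 0.117 in limma) ran from 0.33 to 0.61 when single libraries were left out and was 0.18 without both replicates numbered 3. PMAIP1 lies on hg19 chromosome 18, 57567180 to 57571538 (ENSG00000141682.11).

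BCL2L11, which encodes BIM, a BH3-only protein able to engage every survival member, gave the tightest dopamine group: 2.35, 2.31 and 2.32 FPKM, against 1.92, 1.59 and 1.69 FPKM in control. All dopamine values lay above the control ones (log2 fold change 0.34, SE 0.12, 95% interval 0.07 to 0.61, adjusted p = 0.117 in limma; hg19 chromosome 2, 111876955 to 111926024, ENSG00000153094.17). Its estimated 233 to 330 fragments a library limit the precision of each value.

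BBC3, which encodes PUMA, a strong killer protein, lay lower with dopamine, at 3.05, 3.50 and 3.18 FPKM against 4.35, 3.66 and 3.71 FPKM in control (hg19 chromosome 19, 47724081 to 47736023, ENSG00000105327.11). The groups did not overlap, by a narrow gap, and the 95% interval of its log2 fold change of -0.23 (SE 0.12) reached from -0.49 to 0.03 (adjusted p = 0.185 in limma). BID, the protein that caspases cut to link death receptors to mitochondria, stood at 14.3, 18.1 and 15.8 FPKM in control and 15.5, 16.2 and 13.2 FPKM with dopamine (hg19 chromosome 22, 18216906 to 18257536, ENSG00000015475.14). Those ranges overlapped, with a log2 fold change of -0.10 (SE 0.11, 95% interval -0.35 to 0.16, adjusted p = 0.556 in limma). BAD, whose protein is switched off by growth-factor kinases, overlapped as well, with 41.1, 46.2 and 35.2 FPKM in control and 39.2, 37.0 and 28.9 FPKM with dopamine (log2 fold change -0.22, SE 0.13, 95% interval -0.52 to 0.07, adjusted p = 0.254 in limma; hg19 chromosome 11, 64037302 to 64052176, ENSG00000002330.9). The span of BAD shares 14643 bases with GPR137, whose mean was 14 FPKM, and since the strand setting of the counting is not stated in the sources used here, reads from the pair may be mixed.

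**Figure D2:**
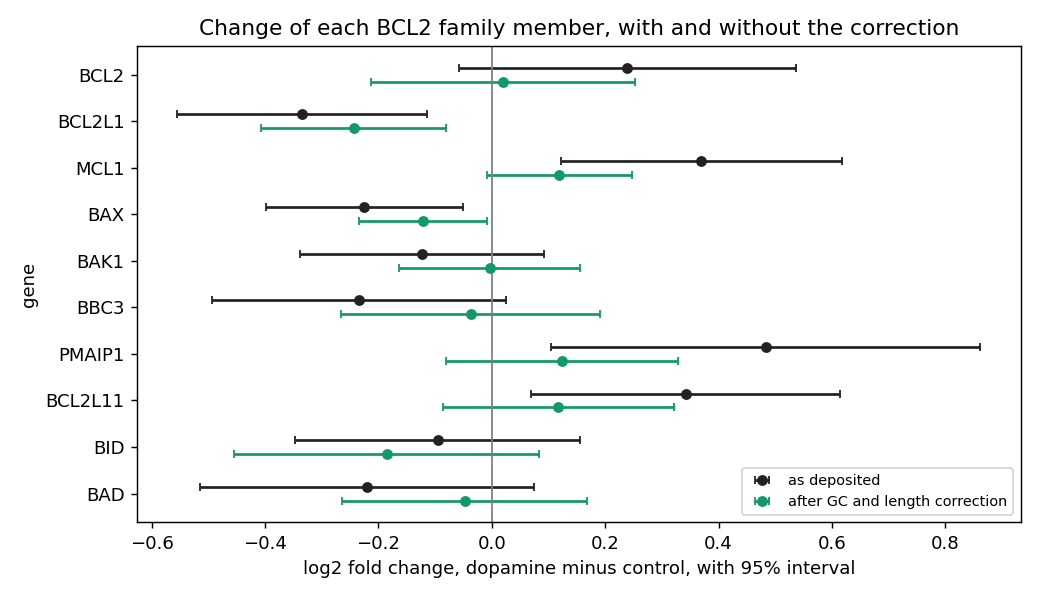
Log2 fold change (dopamine minus control) with its 95% interval for each member, as deposited (black) and after correcting for transcript GC and length (green); BCL2 is from the fit of genes with a mean of 0.3 FPKM or more. The intervals of BCL2L1, MCL1, BAX, PMAIP1 and BCL2L11 leave out 0 as deposited, and those of BCL2L1 and BAX alone do so after the correction.

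The regulatory sequence before the start of 9 members was looked up in RefSeq (GRCh38.p14, a build other than that of the gene positions above); MCL1 had no entry. The 250 bases upstream of the 15 starts listed held 47.6 to 78.0% GC, against a median of 58.0% over 35116 such windows. They are shown for the members with an unadjusted p under 0.05 that had an entry, PMAIP1 and BCL2L11 (higher with dopamine) and BAX and BCL2L1 (lower), to set their promoters beside transcripts of such different composition. Capitals mark GC boxes (GGGCGG on either strand, present in 42.6% of all windows) and the antioxidant response element core (TGACNNNGC on either strand, 10.9%), the motif through which NRF2 acts.
PMAIP1, chr18:59899746-59899995, plus strand: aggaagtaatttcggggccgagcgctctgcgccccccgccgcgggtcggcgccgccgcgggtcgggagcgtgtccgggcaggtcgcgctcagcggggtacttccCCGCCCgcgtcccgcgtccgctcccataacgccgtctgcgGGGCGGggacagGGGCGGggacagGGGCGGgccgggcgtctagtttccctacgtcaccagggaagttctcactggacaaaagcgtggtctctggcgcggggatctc
BCL2L11, chr2:111120664-111120913, plus strand: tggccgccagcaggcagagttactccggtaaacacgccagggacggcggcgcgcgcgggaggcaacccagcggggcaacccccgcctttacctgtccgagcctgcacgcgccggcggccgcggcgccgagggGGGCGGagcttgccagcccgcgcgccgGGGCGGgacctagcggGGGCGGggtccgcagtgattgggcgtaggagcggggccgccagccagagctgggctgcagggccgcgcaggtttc
BAX, chr19:48954625-48954874, plus strand: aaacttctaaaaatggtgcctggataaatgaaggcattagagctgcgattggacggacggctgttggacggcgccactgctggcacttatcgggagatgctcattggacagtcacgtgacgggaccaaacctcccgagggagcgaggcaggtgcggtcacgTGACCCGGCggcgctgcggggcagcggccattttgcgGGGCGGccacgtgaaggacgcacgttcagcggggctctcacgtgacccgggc
BCL2L1, chr20:31723964-31724213, minus strand: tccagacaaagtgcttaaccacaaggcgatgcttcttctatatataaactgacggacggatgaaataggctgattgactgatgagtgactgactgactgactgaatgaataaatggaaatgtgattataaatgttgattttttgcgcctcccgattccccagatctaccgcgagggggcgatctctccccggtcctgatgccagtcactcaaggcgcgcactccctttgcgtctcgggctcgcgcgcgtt
The windows of PMAIP1 and BCL2L11 held 72.8% and 76.8% GC with 4 and 3 GC boxes before transcripts of 37.2% and 45.7% GC. The BAX window (62.8% GC) held 1 GC box and 1 antioxidant core, and the BCL2L1 window shown (50.0% GC), the first of 2 starts, held neither, as did its other one. An antioxidant core also stood before BAD. A cAMP response element (TGACGTCA, in 1.65% of all windows), its variant TGACGTAA (0.37%) and the amino acid response core TGATGNAA (3.14%) matched in none of the 15 windows. A match is a string of letters, and no binding was measured.

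The direction of a member followed its transcript's base composition. The 4 members higher with dopamine had transcripts of 37.2% (PMAIP1), 45.1% (MCL1), 45.6% (BCL2) and 45.7% (BCL2L11) GC, whereas the 6 lower ones had 49.7% (BID), 56.9% (BCL2L1), 58.8% (BAK1), 58.9% (BAX), 66.3% (BAD) and 69.7% (BBC3). The same gradient ran through all tested genes: the median log2 fold change was 0.42 in 1544 genes under 40% GC, 0.16 in 2059 genes from 45 to 50%, -0.11 in 1808 genes from 55 to 60% and -0.19 in 443 genes of 65% or more. Per 10 points of GC content the libraries' slopes were 0.02, 0.11 and 0.22 log2 units in the control libraries and -0.03, -0.06 and -0.26 in the dopamine libraries, so the slope and the group cannot be told apart.

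Set against genes in the same GC range, members differed, though the result for a member near the edge of a range depends on where that range ends. PMAIP1 at 0.48 lay inside the quartiles of its range (0.32 to 0.52), as did BAK1 (quartiles -0.19 to -0.02), and BBC3 and BAD (quartiles -0.26 to -0.11). Genes from 45 to 50% GC had quartiles of 0.04 and 0.28; BCL2, which is not among these genes, stood at 0.24 with the constant of 0.5 and at 0.35 with one of 0.1. MCL1 at 0.37 and BCL2L11 at 0.34 lay above the upper quartile of that range, and BID at -0.10 lay below the lower one. Each of them is near an edge of the range and lay inside the quartiles of the neighbouring one. These were 0.20 to 0.43 from 40 to 45% GC, next to MCL1 and BCL2L11, and -0.11 to 0.10 from 50 to 55%, next to BID. BCL2L1 at -0.33 and BAX at -0.22 lay below the lower quartile of genes from 55 to 60% GC (-0.19). BAX, at 58.9% GC, lay inside the quartiles of genes from 60 to 65% (-0.23 to -0.09), and BCL2L1 lay below those too.

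**Figure D3:**
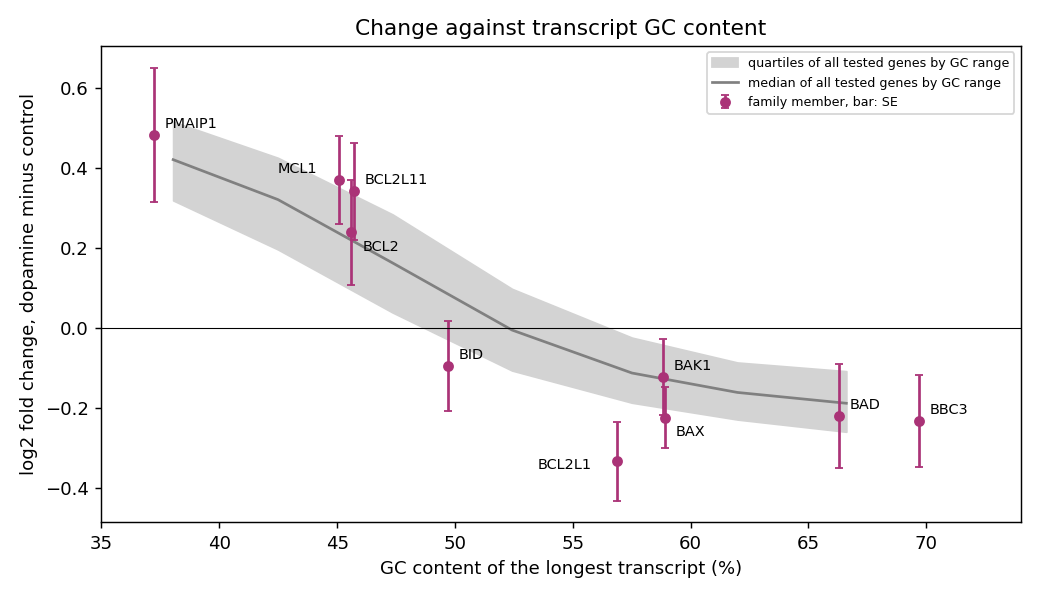
Log2 fold change (dopamine minus control, bar: SE) of each member against the GC content of its longest transcript, over the median (line) and quartiles (band) of all tested genes in 7 GC ranges. The 4 members from 37.2 to 45.7% GC are above 0 and the 6 from 49.7 to 69.7% are below 0; the medians of all genes fall from left to right.

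A loess correction of each library for GC content and transcript length left all 10 directions in place and made most changes smaller. BCL2L1 kept a log2 fold change of -0.24 (SE 0.07, 95% interval -0.41 to -0.08, unadjusted p = 0.00894, adjusted p = 0.183 in limma) and BAX one of -0.12 (SE 0.05, unadjusted p = 0.0384, adjusted p = 0.271). MCL1 went to 0.12 (SE 0.06, 95% interval -0.01 to 0.25, adjusted p = 0.324), PMAIP1 to 0.12 (SE 0.09, adjusted p = 0.494), BCL2L11 to 0.12 (SE 0.09, adjusted p = 0.515) and BCL2 to 0.02 (SE 0.10, adjusted p = 0.944). BAK1, BBC3 and BAD stood near 0, at -0.0037, -0.04 and -0.05, and BID moved away from it, to -0.19. The corrected values of BCL2, BAK1, BBC3 and BAD were smaller than their SE, so their directions are not resolved. Nor are those of MCL1, PMAIP1, BCL2L11 and BID, whose corrected 95% intervals included 0. These ran from -0.08 to 0.33 for PMAIP1, -0.09 to 0.32 for BCL2L11 and -0.45 to 0.08 for BID. Only the intervals of BCL2L1 and BAX left out 0. Of the 9 tested members 0 then passed the adjusted threshold (0.225% of all tested genes did) and 2, both lower, had an unadjusted p under 0.05, against 8.45% of all tested genes lower and 16.8% in either direction. In 3 of the 10, BCL2L1, BAX and MCL1, the groups still did not overlap, against 12.0% in each direction and 24.0% in either. Since the GC slope differs between the groups, this correction can also remove part of a real difference.

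Whether members passed depended on single libraries. Without control replicate 1, BCL2L1 (log2 fold change -0.41, adjusted p = 0.0341), MCL1 (0.48, adjusted p = 0.0304) and PMAIP1 (0.56, adjusted p = 0.046) passed in limma, while 18.5% of all tested genes did so too. With quality weights for the libraries, BCL2L1 (-0.29, adjusted p = 0.024), MCL1 (0.33, adjusted p = 0.0188), BAX (-0.22, adjusted p = 0.0268) and BCL2L11 (0.40, adjusted p = 0.0234) passed, beside 22.9% of all tested genes. Over their 18 alternatives the adjusted p reached up to 0.371 for BCL2L1, 0.386 for MCL1, 0.386 for BAX, 0.501 for PMAIP1 and 0.519 for BCL2L11. Among members that did not pass in any setting, BAD went from -0.22 to -0.09 without dopamine replicate 3 and to -0.13 without control replicate 2. BAK1 went from -0.12 to -0.06 without either of the same libraries. BID went from -0.10 to -0.01 without either of them, to -0.17 without control replicate 1 and to -0.15 without dopamine replicate 2. Without control replicate 2 the count of members at an unadjusted p under 0.05 was 3 in place of 5 (19.2% of all tested genes), and without both replicates numbered 3, the libraries with the steepest GC slopes, it was again 3, against 13.1% of all tested genes.

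**Figure D4:**
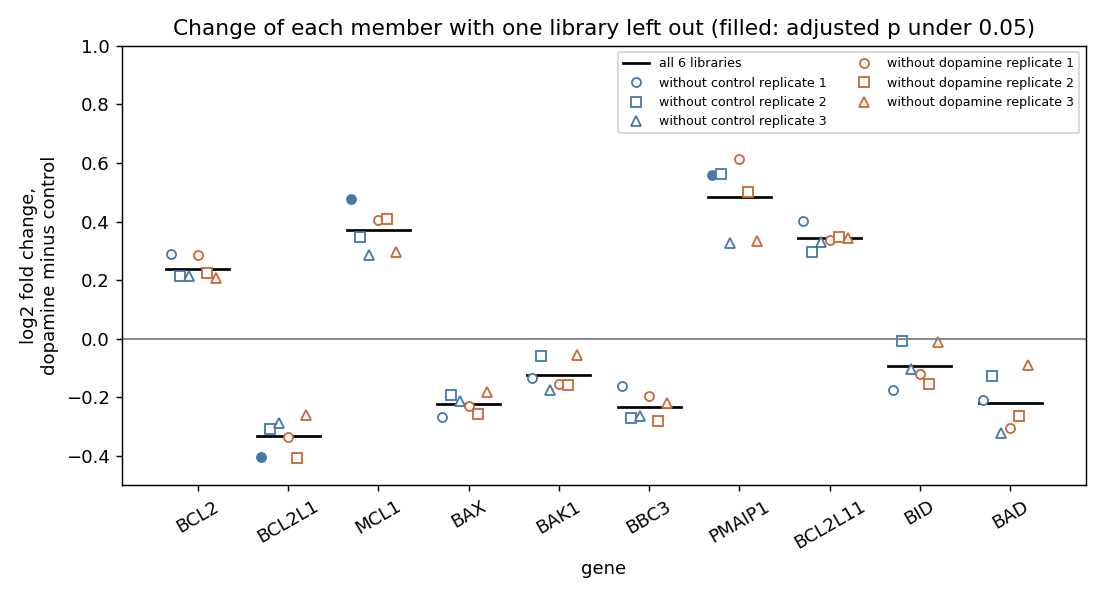
Log2 fold change of each member with all 6 libraries (black bar) and with each library left out in turn (symbols; filled where the adjusted p is under 0.05). No symbol crosses 0, and the filled ones are BCL2L1, MCL1 and PMAIP1 without control replicate 1.

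Ratios between members within a library do not depend on the library's total. For each BCL2L1 fragment per kilobase there were 0.741, 0.539 and 0.480 of MCL1 in control libraries and 0.897, 0.810 and 1.17 in dopamine libraries, so dopamine libraries held 1.64 times as much MCL1 per BCL2L1. The MCL1 to BAX ratio stood at 0.635, 0.475 and 0.449 in control and 0.732, 0.703 and 0.918 with dopamine. Both ratios had groups that did not overlap, also after the GC and length correction, where their log2 differences were 0.39 (0.71 as deposited) and 0.26 (0.60 as deposited). The BCL2 to BAX ratio, a common index of the balance between survival and death, was small throughout, at 0.0117 ± 0.00188 in control and 0.0179 ± 0.00223 with dopamine, and its log2 difference was 0.62 as deposited and 0.16 after the correction. BCL2L1 to BAX overlapped (0.890 ± 0.0397 and 0.824 ± 0.0409), as did PMAIP1 to MCL1 (0.245 ± 0.0343 and 0.269 ± 0.0337) and BBC3 to BCL2L1 (0.0762 ± 0.0145 and 0.0794 ± 0.00614). These ratios are descriptions with no test, and the share of other gene pairs whose groups separate in this way is not given here. Their members differ in GC content: the transcripts of MCL1 and BCL2 hold 45.1% and 45.6%, those of BCL2L1 and BAX 56.9% and 58.9%.

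**Figure D5:**
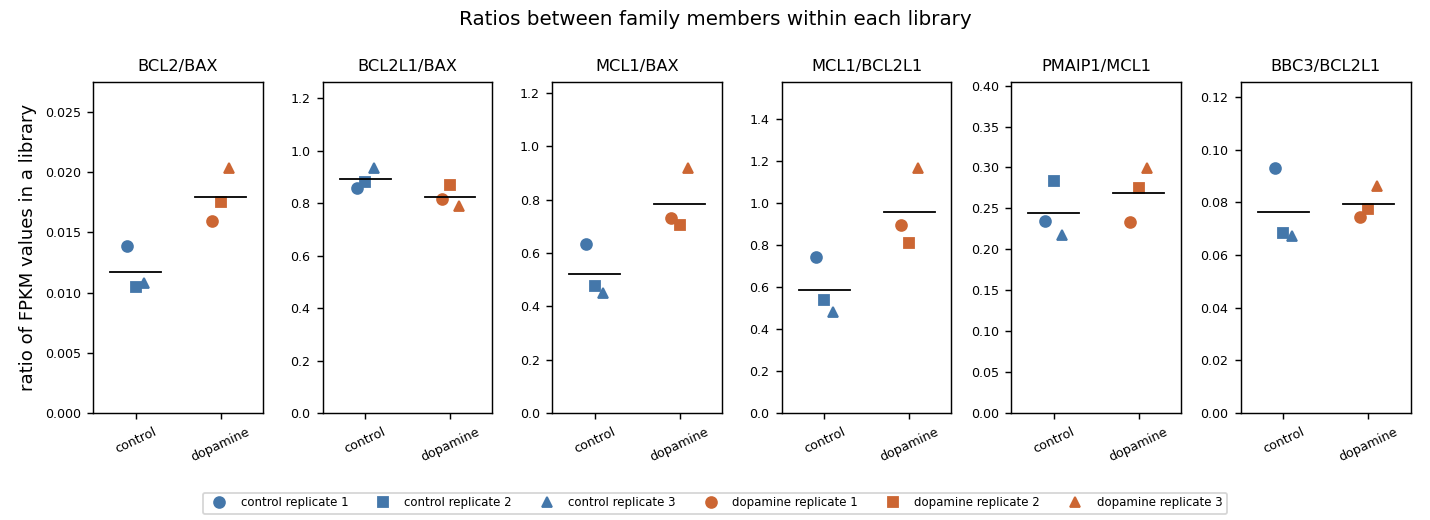
Ratio of FPKM values of 2 members within each library (axes start at 0; marker shape: replicate; bar: group mean). MCL1/BCL2L1, MCL1/BAX and BCL2/BAX are higher in all 3 dopamine libraries than in all 3 control libraries; the other 3 ratios overlap.

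Other genes of the family gave 7 tested genes of 13 listed, none of which passed the adjusted threshold in limma. BOK, an effector relative that needs no BH3-only partner, stood at 5.15, 4.95 and 4.75 FPKM in control and 4.15, 3.35 and 2.59 FPKM with dopamine (log2 fold change -0.51, SE 0.15, adjusted p = 0.11). Its groups did not overlap, and with GC and length corrected for it kept -0.33 (unadjusted p = 0.0156, adjusted p = 0.212). The mitophagy receptor genes BNIP3 and BNIP3L lay higher, at 17.6 ± 0.507 and 21.2 ± 1.6 FPKM for BNIP3 (log2 fold change 0.26, adjusted p = 0.111) and 4.54 ± 0.989 and 6.73 ± 0.962 FPKM for BNIP3L (0.53, adjusted p = 0.11). After the correction BNIP3 stood at 0.22 and BNIP3L at 0.12. The survival gene BCL2L2 stood at 4.70 ± 0.372 and 5.47 ± 0.450 FPKM, the BH3-only gene BMF at 1.36 ± 0.193 and 1.64 ± 0.0321 FPKM, BCL2L13 at 7.36 ± 0.275 and 8.40 ± 0.0485 FPKM and BCL2L12 at 12.8 ± 0.202 and 12 ± 1.2 FPKM (adjusted p = 0.218, 0.288, 0.171 and 0.491 in limma). BCL2A1, BCL2L10, BIK, HRK and BCL2L15 stayed below a mean of 0.3 FPKM in both groups, and BCL2L14 was not analysed here.

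Downstream of the pores, 9 of 10 genes of the apoptosome and the proteins released from mitochondria were tested and none passed. At an unadjusted p under 0.05 lay 5, all of them higher with dopamine, against 24.4% of all tested genes higher. The list median of 0.31 was 0.09 after the GC and length correction, when 0 of the 9 were at that line against 16.8% of all tested genes. CYCS, the cytochrome c gene, stood at 13.1 ± 2.26 and 18.2 ± 1.92 FPKM, APAF1, the scaffold of the apoptosome, at 0.913 ± 0.0402 and 1.41 ± 0.225 FPKM, and XIAP, a caspase inhibitor gene, at 2.0 ± 0.520 and 3.10 ± 0.598 FPKM (adjusted p = 0.11, 0.113 and 0.116 in limma). These 3 transcripts hold 39.0 to 41.7% GC, the range in which the median of all genes was raised. Among 12 tested genes of the mitochondrial membranes none passed and 3, all higher, were at an unadjusted p under 0.05, a share near the 24.4% of all tested genes (list median 0.08, and -0.0012 after the correction): the channel gene VDAC3 (12.6 ± 1.93 and 16.3 ± 1.24 FPKM), the fission gene DNM1L (4.29 ± 0.993 and 6.44 ± 1.4 FPKM) and the fusion gene OPA1 (2.49 ± 0.915 and 3.8 ± 0.776 FPKM).

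Of 11 tested genes of transcription factors known to act on family members, 1 rose and 10 did not pass. DDIT3, which encodes the stress factor CHOP, stood at 3.96, 4.90 and 3.70 FPKM in control and 8.97, 8.71 and 7.74 FPKM with dopamine, with a rise of 0.94 on the log2 scale (SE 0.12, adjusted p = 0.028 in limma) that was 0.88 once GC and length were corrected for (limma adjusted p = 0.0229). Leaving out any library other than control replicate 1 took its adjusted p past the threshold, to between 0.0776 and 0.162. Over 17 alternative settings DDIT3 passed in 7, and its highest adjusted p in limma was 0.18. BCL2L11 and BBC3 are genes that CHOP is known to raise in some cells. Here their log2 fold changes were 0.34 and -0.23, and 0.12 and -0.04 after the correction, where both 95% intervals included 0. Any link between DDIT3 and these members was not tested. E2F1 stood at 22.3 ± 1.66 and 18.8 ± 2.20 FPKM and TP73 at 1.54 ± 0.146 and 1.16 ± 0.0869 FPKM (adjusted p = 0.141 and 0.16).

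Genes whose products phosphorylate, bind or degrade family proteins gave 18 tested of 20, none of which passed, while 8 had an unadjusted p under 0.05, 6 of them higher and 2 lower, against 24.4% and 8.05% of all tested genes. The list median of 0.19 was -0.02 after the GC and length correction, with 2 genes at that line against 16.8% of all tested genes. YWHAZ and YWHAQ, adaptors that hold phosphorylated BAD in the cytosol, stood at 49.1 ± 5.55 and 63.8 ± 9.39 FPKM and at 136 ± 9.04 and 165 ± 15.8 FPKM (adjusted p = 0.111 and 0.113 in limma). MARCH5, a ubiquitin ligase of the outer membrane, stood at 3.89 ± 0.593 and 5.29 ± 0.805 FPKM (adjusted p = 0.117). After the correction their log2 fold changes were at or below 0: -0.0020 for YWHAZ, -0.0052 for YWHAQ and -0.012 for MARCH5. AKT2, a kinase gene of the survival pathway that inactivates BAD, stood at 13.5 ± 0.656 and 11.4 ± 0.634 FPKM (adjusted p = 0.12). It kept a log2 fold change of -0.12 after the correction (unadjusted p = 0.0542, adjusted p = 0.303 in limma). Its groups still did not overlap, as in 12.0% of all tested genes in that direction.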

How the data were processed

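RNA of 3 control and 3 dopamine samples was measured; titles gave the group and the replicate number of each sample. Per the labels' protocols, total RNA freed of ribosomal RNA was primed at random and made into strand-specific libraries. The authors deposited 1 table of FPKM values with hg19 gene positions. The submitters' processing notes list STAR 2.7.1a, HTSeq 0.11.2, DESeq2 1.40.2 and FastQC 0.11.9, with no role for any. The annotation, the strand setting and how FPKM was made are not stated in the sources used here. FPKM divides by each library's total, so abundant genes that rise lower all others.

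Depth was recovered from 2809 pseudogenes of short span, taken as single exons: with the recovered totals, 92.2 to 94.1% of low values were whole fragments within 0.03. Fragment numbers of members used merged exon lengths of GENCODE 29 by gene identifier and are estimates. The analysis used log2(FPKM + 0.5), which understates the fold changes of low genes. The groups were tested in limma 3.58.1 (R 4.3.3) over the 11791 genes at or above a mean FPKM of 1 (intensity trend, two-sided, Benjamini-Hochberg over all tested genes, threshold 0.05, no replicate block). The test was checked on simulated data with independent noise and no GC slopes, so that check does not cover the slopes of these libraries. GC content and length of the longest transcript (GENCODE 29) were had for 98.2% of tested genes (11579), and a loess fit with span 0.5 gave the correction. Alternatives were pseudocounts, filters, scalings, no trend, library weights, a replicate block, the GC and length correction and leaving out libraries. Named were all members, all tested genes of the further family list and up to 4 genes with the smallest p of each other list, with DDIT3 and APAF1. A few results under this rule are not reported here. The members, lists and tests were chosen with earlier results of these data known, and the runs of every setting at a mean FPKM of 0.3 and without both replicates numbered 3 were added after seeing the data.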

Additional observations from a re-analysis of the deposited data

How the results depend on the processing

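Of 179 values of the 10 members under alternative settings, none changed direction, 172 also stayed on the same side of the threshold and 7 newly passed it (library quality weights, or without control replicate 1). The filters, the trend setting and the replicate block leave a gene's log2 fold change as it is. Under those settings the direction was fixed in advance, so the count overstates how far the directions were put to the test. The genes called in all, 12, were 6 with no filter, 27 after quantile normalization, 5 with no trend, 2706 with quality weights, 26 after the GC and length correction, 7 without both replicates numbered 3, and 3 to 2177 when single libraries were left out. Members called, 0, were 4 with quality weights and 0 to 3 when single libraries were left out (3 without control replicate 1). Members at an unadjusted p under 0.05, 5, were 2 after the GC and length correction, 3 without both replicates numbered 3 and 3 to 5 when single libraries were left out. Members whose groups did not overlap, 7, were 5 after quantile normalization and 3 after the correction. They were 7 to 9 when single libraries were left out, which leaves fewer values to separate, and the share of all genes for these counts is not given here.

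The labels do not say that replicate numbers pair the samples. Deviations of same-numbered libraries correlated at -0.20, 0.28 and -0.37 across genes for numbers 1, 2 and 3, and control replicate 1 correlated best with dopamine replicate 3 (0.42). The libraries' GC slopes also enter these deviations, so the correlations cannot decide whether same-numbered samples shared a culture or a day. With the replicate block 3 genes and 0 members were called and 6 members had an unadjusted p under 0.05, against 21.9% of all tested genes; with the block and the GC and length correction 8 genes and 0 members were called, 2 members had such a p, against 18.3% of all tested genes, and 3 members had groups that did not overlap.

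The log2 difference of BCL2/BAX, 0.62, was 0.39 after quantile normalization and 0.16 after the GC and length correction, that of MCL1/BAX, 0.60, was 0.26 and that of MCL1/BCL2L1, 0.71, was 0.39 after the correction. BBC3/BCL2L1, 0.07, turned to -0.15 after quantile normalization and to -0.011 without control replicate 3 (highest value with a library left out 0.22). Among 23 other genes chosen by the rule for named genes 8 of 414 values changed direction, all after the GC and length correction with or without the replicate block: BCL2L12 to 0.029, YWHAZ to -0.0020, YWHAQ to -0.0052 and MARCH5 to -0.012. Of the other values, 373 stayed on the same side of the threshold and 23 newly passed it. In 10 the threshold was no longer passed, all of them values of DDIT3. The cause of these shifts was not tested. Depth limits BCL2, BBC3 and BCL2L11 most.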
